A study of Homo sapiens with 16 samples.

Results

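The genotype difference in the response to interferon was examined at open chromatin of THP-1 cells, a human monocytic leukemia line, as measured by ChIP-seq of H3K27ac. For each region the IFN effect in USP18−/− cells (IFNα minus untreated, log2 scale) was compared with the IFN effect in WT cells, and the difference between these effects was tested directly. The comparison used 8 of the 16 libraries of the series, namely all H3K27ac libraries, and the other 8 were input libraries. Of 151654 regions, each a 1000 bp window at a merged ATAC-seq peak, 123276 held enough tags to be tested.

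There were 4 groups of 2 libraries. WT cells were labelled as Cas9 alone and carried a control sgRNA, and USP18−/− cells were edited with sgRNAs against USP18. Both genotypes were left untreated or given IFNα at 1000 U/ml for 6 h. Edited lines were grown from sorted single cells and screened by PCR, sequencing and Western blot, so a difference between the genotypes cannot be told apart from a difference between clones. The replicates were described as biological but not as separate clones, and p-values measure the spread between these libraries.

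Type I interferon binds the receptor made of IFNAR1 and IFNAR2, which activates the kinases JAK1 and TYK2 and, through them, STAT proteins. With IRF9 the STATs form ISGF3, a complex that binds the interferon-stimulated response element (ISRE) at interferon stimulated genes (ISGs). USP18 is itself an ISG. It removes ISG15 from proteins and, bound to STAT2, holds back signalling at IFNAR2. Acetylation of histone H3 at lysine 27 marks active promoters and enhancers.

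The libraries held 9046141 to 12935453.5 tags in the regions. These were 36.1% to 37.3% of all tags in the WT libraries and 38.4% to 42.5% in the USP18−/− libraries. Both libraries of each group lay next to each other on the first principal components, which carried 65.7% and 19.9% of the variance, and none stood apart from its group. All 10 monocytic markers had a tested promoter region, among them SPI1 and CD14, with mean levels of 2.25 to 92.0 CPM (counts scaled to library size with TMM factors, over windows of equal length). None of the 4 erythroid markers had one, whereas 2 of 4 T cell markers (0.905 and 9.44 CPM), 2 of 4 B cell markers (1.42 and 5.67 CPM) and 2 of 4 epithelial markers (0.646 and 0.929 CPM) did.

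H3K27ac at the USP18 promoter was read first, in the region at chr22:18149602-18150602 (hg38), annotated as 5′ UTR at 111 bp from the transcription start site (TSS). Untreated WT libraries gave 7.85 and 7.62 CPM and IFN treated WT libraries 18.0 and 15.0 CPM. Untreated USP18−/− libraries gave 8.20 and 8.47 CPM and IFN treated ones 49.2 and 41.7 CPM. The untreated libraries of both genotypes lay close together, and the treated USP18−/− libraries were far above the treated WT libraries. The difference between the IFN effects was 1.35 (SE 0.22), with an adjusted p of 2.05e-06 in the quasi-likelihood test of edgeR (Benjamini-Hochberg method). Acetylation of the promoter does not show the edit in the coding sequence. The regions at 6289 and 7331 bp from the TSS were not called.

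The signed IFN effect was larger in USP18−/− cells at 5743 regions, which is 4.66% of those tested, and smaller at 3093 regions, which is 2.51%. Larger and smaller refer to the sign of the difference, so a fall in USP18−/− cells alone counts as a smaller effect. A call required a difference of more than 2-fold and an adjusted p under 0.05 in edgeR. Regions with a larger effect were mostly ones where IFN changed little in WT cells and raised acetylation in USP18−/− cells, and the promoters of antiviral effectors, guanylate binding proteins, CXCL10, CXCL11, AIM2 and TNFSF10 were among them. Regions with a smaller effect were mostly ones where IFN lowered acetylation in USP18−/− cells, with the promoters of CEBPE, E2F1 and LYZ among them. A single region was called in opposite directions in the genotypes. Scaling by the sum of counts shifted the median difference over all regions by -0.13 and gave 4670 larger and 4779 smaller effects, so that larger effects were 49.4% of the calls in place of 65.0%.

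**Figure D1:**
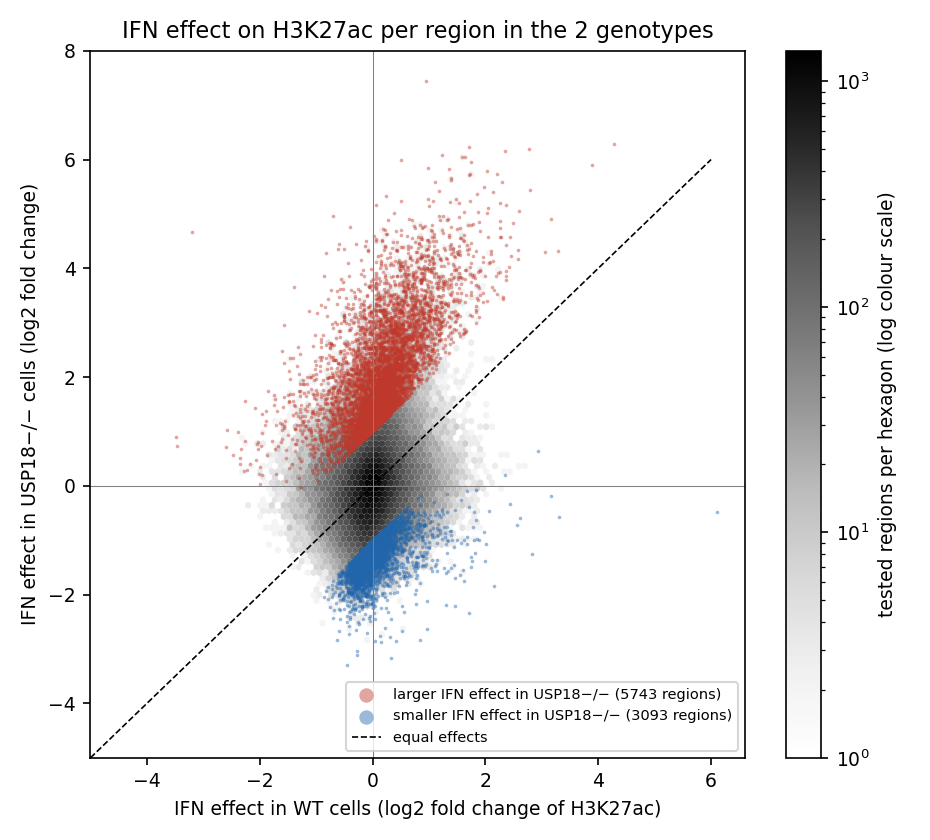
IFN effect per region (log2 fold change of H3K27ac) in WT cells on the x axis and in USP18−/− cells on the y axis. Grey shading counts tested regions per hexagon on a log colour scale, red points are the 5743 regions with a larger effect in USP18−/− cells, blue points are the 3093 with a smaller effect, and the dashed line marks equal effects. Most red points lie near 0 on the x axis and well above 0 on the y axis.

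The 5743 regions with a larger effect had a median level of 3.29 CPM in untreated and 3.87 CPM in IFN treated WT cells. In USP18−/− cells the median was 2.65 CPM untreated and 11.5 CPM with IFN. On the log2 scale the median IFN effect was thus 0.15 in WT cells but 1.91 in USP18−/− cells. The difference exceeded 4-fold at 2251 of these regions and 8-fold at 570. The effects of single library pairs did not overlap between genotypes at 5730 of them, beside 34.1% of all tested regions, which follows from the calls. On the linear scale the gain in CPM was also larger in USP18−/− cells at 5742 of the 5743. Treated USP18−/− cells had the higher mean level at 5459 of them, and untreated USP18−/− cells the lower mean level at 3711, or 64.6%, compared with 51.1% of all tested regions. Selection on the difference between the effects favours both, so neither share is a separate result.

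The calls in each genotype placed these regions into classes. At 4897 regions a rise was called in USP18−/− but not in WT cells. Their median effect in WT cells was 0.17, with a range of -0.59 to 0.89 from the 5th to the 95th percentile, and was above 0 at 3316. At 318 regions a rise was called in both genotypes, with median levels of 3.21 and 8.86 CPM in untreated and treated WT cells and of 2.75 and 39.5 CPM in USP18−/− cells. These were regions that WT cells also acetylated on IFN, and the median effect was 1.39 in WT cells but 3.55 in USP18−/− cells. At 521 regions neither genotype passed its own threshold, and at 7 a fall was called in WT cells alone.

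Of all 424 regions with a called rise in WT cells (0.344% of those tested), 318 had a larger effect in USP18−/− cells, 5 had a smaller one and 101 passed neither threshold. Missing the threshold does not show equal effects at these 101. In USP18−/− cells a rise was called at 8797 regions (7.14%) and a fall at 5278 (4.28%), beside 47 falls (0.0381%) in WT cells.

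The 3093 regions with a smaller effect had higher levels at the start. Their medians were 10.9 CPM in untreated and 10.6 CPM in treated WT cells. In USP18−/− cells the median was 8.94 CPM untreated and 3.56 CPM with IFN. WT cells had a median IFN effect of -0.01 and USP18−/− cells of -1.29. At 2484 of them a fall was called in USP18−/− but not in WT cells, and at 604 neither genotype passed its own threshold. The difference exceeded 4-fold at 220 regions and 8-fold at 28, so large differences were rarer in this direction. On the linear scale the change in CPM was also lower in USP18−/− cells at 3036 of the 3093.

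Larger and smaller effects lay mostly away from promoters. Among regions within 3000 bp of a TSS (proximal), 941 of 28847 (3.26%) had a larger and 424 (1.47%) a smaller effect. Among distal regions the shares were 4802 of 94429 (5.09%) and 2669 (2.83%). Introns held 50.9% of the regions with a larger effect and intergenic stretches 36.2%, beside 43.1% and 36.7% of all tested regions. Regions annotated at a TSS made up 7.68% of the larger effects, 5.56% of the smaller effects and 13.7% of all tested regions. The share called moved with the mean level. It was 0.548% larger and 0.231% smaller in the lowest of 5 equal groups of regions by level, 9.63% and 5.18% in the group next to the highest and 6.36% and 5.23% in the highest. Of the regions with a larger effect 42.3%, and of those with a smaller effect 49.9%, overlapped another tested window, so that neighbouring calls can share tags.

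Sequence matches were counted in the central 200 bp of each region, on both strands, in the hg38 sequence. The ISRE, searched as GAAA, any 2 bases and GAAA again, was found in 5.62% of all tested regions, in 30.0% of those with a larger effect and in 1.58% of those with a smaller effect. Where a rise was called in both genotypes the share was 46.9% (149 of 318), and where it was called in USP18−/− cells alone it was 31.2% (1526 of 4897). Regions raised by IFN without a called difference had high shares too. It was 24.7% (886 of 3582) where the rise was called in USP18−/− cells and 43.6% (44 of 101) where it was called in WT cells. A high share is thus not particular to regions with a called difference. The ISRE was found at 22.3% of the proximal and 31.5% of the distal regions with a larger effect, compared with 2.75% and 6.50% of all proximal and distal regions. Read the other way, 24.9% of the 6930 regions with a match had a larger effect, while 3.45% of the regions without one did.

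The gamma-activated site of STAT dimers, searched as TTCNNNGAA, was found in 9.99% of the regions with a larger effect, 4.04% of those with a smaller effect and 5.39% of all. The AP-1 letters TGANTCA were found in 15.2%, 10.8% and 13.2%. For the PU.1 core GAGGAAGT the shares were 5.38%, 8.31% and 6.62%, and for the C/EBP letters TTGCNNAA they were 18.6%, 22.6% and 16.6%. Matches to different motifs could share bases and were counted separately. Regions with a larger effect had a median GC content of 44.5%, those with a smaller effect 49.0% and all tested regions 50.0%. The part of base composition in these shares was not tested, and a match is not evidence of binding.

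**Figure D2:**
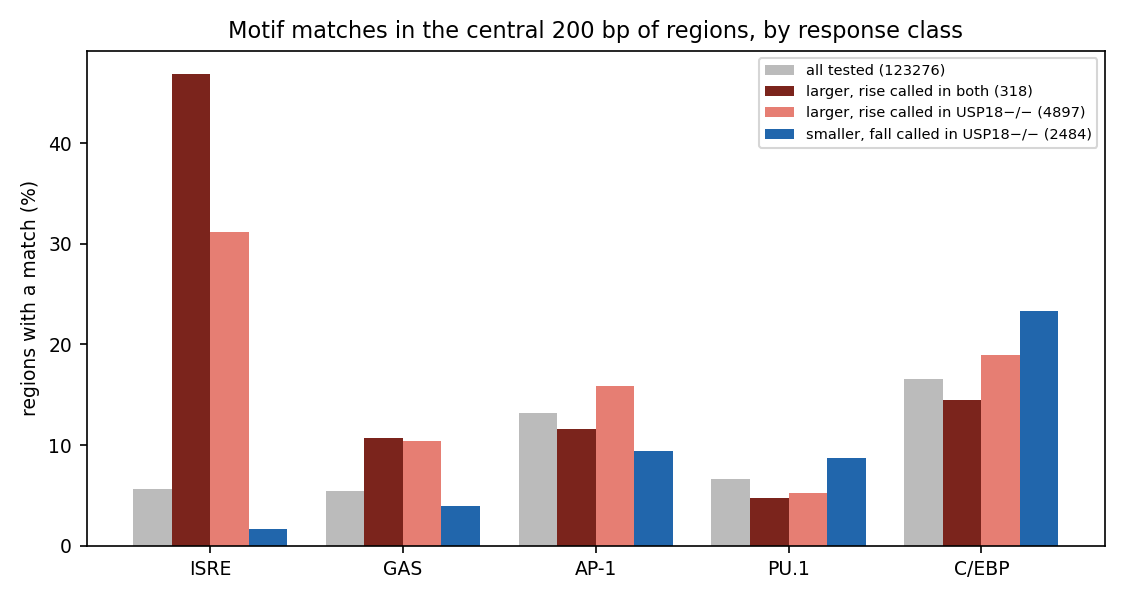
Percent of regions (y axis) with a match to each of 5 motifs (x axis) in their central 200 bp, for all 123276 tested regions (grey), regions with a larger effect and a rise called in both genotypes (dark red, 318) or in USP18−/− cells alone (light red, 4897), and regions with a smaller effect and a fall called in USP18−/− cells (blue, 2484). The ISRE share was 46.9%, 31.2% and 1.69% in the 3 classes, beside 5.62% of all regions.

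The ISRE matches nearest to the window centre are printed for promoters on which the following results rest, and for the distal region with the largest difference among those with a mean of at least 1 CPM, so that the shared core can be seen beside flanks that differ. Letters are hg38, 5′ to 3′ on the strand given, and capitals mark the match. The matches of MX1, CEBPE, CXCL10 and TNFSF10 lie 252, 184, 133 and 124 bases from the centre, outside the central 200 bp, and did not count in the shares above.
USP18, chr22:18150069-18150098, plus strand: ccattcagtgGAAAACGAAAgctgggcggg
IFIT1, chr10:89392510-89392539, minus strand: gaaacctaggGAAACCGAAAggggaaagtg
ISG15, chr1:1013380-1013409, plus strand: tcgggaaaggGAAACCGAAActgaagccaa
MX1 at -236 bp, chr21:41420559-41420588, plus strand: gagcagaaatGAAACCGAAActgaattgtc
IFITM1, chr11:313990-314019, plus strand: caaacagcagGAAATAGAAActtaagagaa
RSAD2, chr2:6877622-6877651, minus strand: ttccacatgtGAAACTGAAAgttgaaacag
GBP1, chr1:89065316-89065345, plus strand: agagtaatatGAAACTGAAAgtacttcgtt
AIM2 at -71 bp, chr1:159076937-159076966, plus strand: acactgattgGAAACAGAAAgtggcctaga
CXCL10, chr4:76023699-76023728, minus strand: tcatgttttgGAAAGTGAAAcctaattcac
IL27, chr16:28506872-28506901, minus strand: aagcaggacgGAAAGTGAAAccgggcacag
TNFSF10, chr3:172523598-172523627, plus strand: ggaaaggaggGAAACTGAAAgaagctcctc
NLRC5, chr16:56989543-56989572, minus strand: cgctctgcacGAAACTGAAAgtagaagccg
LINC02513, distal, chr4:38283921-38283950, plus strand: atctggtgagGAAACTGAAActcaaggaag
CEBPE, smaller effect, chr14:23120394-23120423, minus strand: gttcccaaagGAAAGAGAAAagggaagagg

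Not all windows held a match. None was found in the 1000 bp windows of MX1 at 157 bp, GBP5 at -13 bp, AIM2 at -631 bp or CXCL11 at -3 and -858 bp. Further windows without a match included those of RNU6-2, NKAIN1, PCDHB8, STAT2 and CCL2, with larger effects, and of E2F1, with a smaller one. The window of CEBPE, where IFN lowered acetylation in USP18−/− cells, held 1 match.

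Promoters were compared gene by gene with the tested region nearest to the TSS, within 3000 bp. Of 16104 genes with such a region, 404 (2.51%) had a larger and 182 (1.13%) a smaller effect, and the median difference over all of them was 0.06. Taking instead the region of highest mean count within 10000 bp, 684 of 18795 genes (3.64%) had a larger and 336 (1.79%) a smaller effect. The 18 gene lists held 285 symbols, of which 261 had a promoter region. Counts of called members below are to be read beside the 2.51% larger and 1.13% smaller of all promoters. The guanylate binding proteins, antiviral effectors and nucleic acid sensors had the highest list medians, and the cell cycle genes the lowest.

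**Figure D3:**
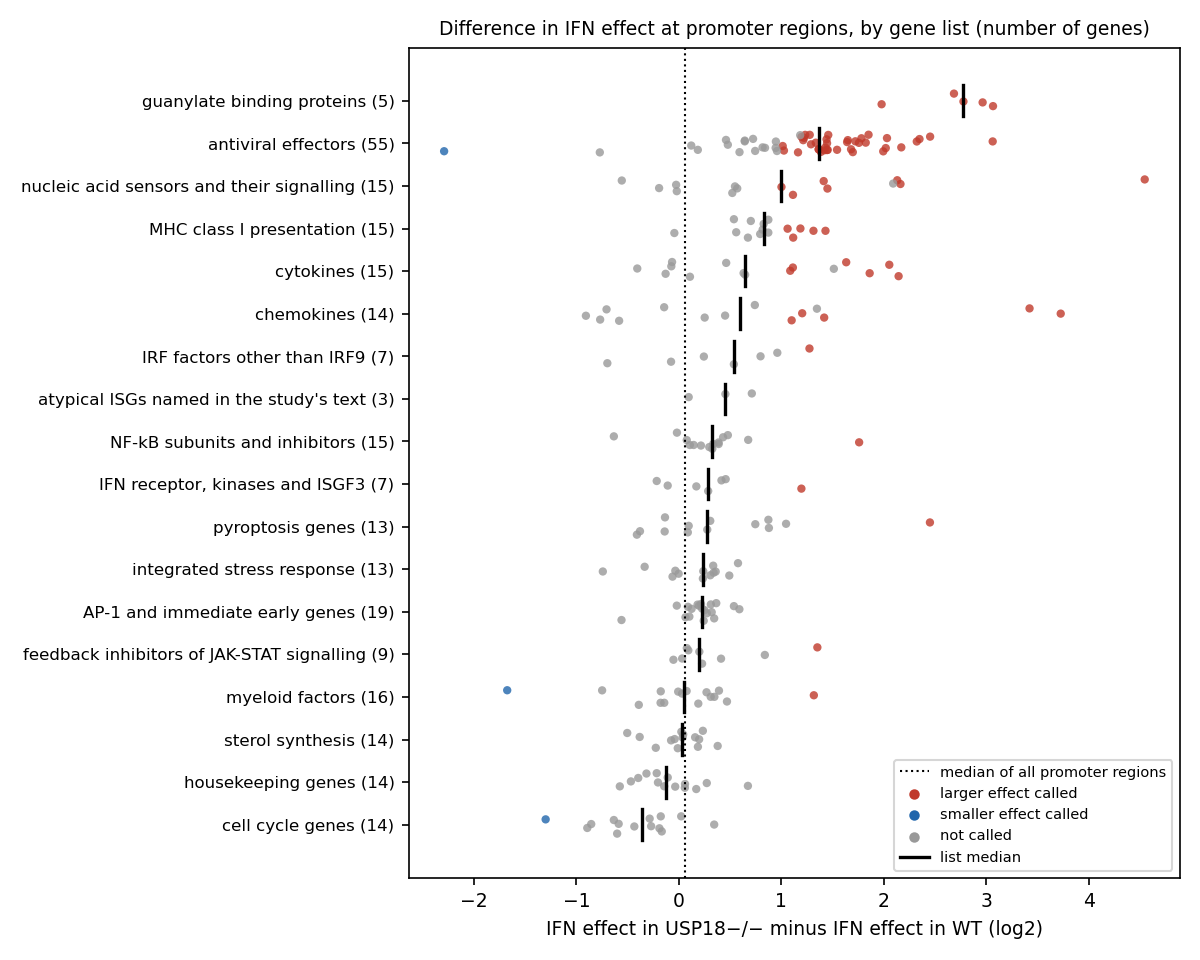
Difference between the IFN effects (USP18−/− minus WT, log2, x axis) at the promoter region of each gene of 18 lists (y axis, number of genes in brackets). Red points are called larger, blue points called smaller and grey points not called, black bars are list medians and the dotted line is the median of all promoter regions at 0.06. All 5 guanylate binding proteins and 38 of 55 antiviral effectors were called larger.

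Among the antiviral effectors, products that block viral entry, translation or replication, 38 of 55 promoters had a larger effect and 1 had a smaller effect, with a median difference of 1.36. IFITM1, a membrane protein that hinders viral entry, gave 8.57 and 7.08 CPM in untreated and 32.3 and 31.9 CPM in treated WT libraries. In USP18−/− libraries it gave 2.71 and 1.92 CPM untreated and 86.5 and 74.6 CPM with IFN. The USP18−/− libraries thus began below and ended above the WT libraries, with no overlap. The difference between the IFN effects was 3.06 (SE 0.25, edgeR adjusted p = 1.66e-17).

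IFI44, a cytoplasmic ISG product, was near the lower limit of detection before IFN in both genotypes, with 0.577 to 0.908 CPM. With IFN it gave 5.85 and 4.82 CPM in WT and 22.3 and 24.1 CPM in USP18−/− libraries, a difference between the effects of 2.45 (SE 0.55, edgeR adjusted p = 6.00e-04). RTP4, a chaperone of receptors that is induced by IFN, gave 16.1 and 14.2 CPM in untreated and 22.3 and 21.6 CPM in treated WT libraries. In USP18−/− libraries it gave 18.0 and 15.1 CPM and then 116 and 101 CPM. The untreated libraries overlapped between genotypes and the treated ones lay far apart, with a difference of 2.17 (SE 0.18, edgeR adjusted p = 2.02e-17).

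IFIT1, which binds viral RNA lacking the host cap methylation, rose in both genotypes. It gave 3.82 and 2.72 CPM and then 14.4 and 15.5 CPM in WT libraries, and 5.32 and 5.20 CPM and then 61.8 and 60.5 CPM in USP18−/− libraries. The treated USP18−/− libraries were the highest, and the difference between the effects was 1.34 (SE 0.27, edgeR adjusted p = 1.20e-04). OAS2, which makes the activator of RNase L, gave 11 and 11.2 CPM and then 51.9 and 51.1 CPM in WT, and 10.4 and 10.5 CPM and then 170 and 145 CPM in USP18−/− libraries. Its difference was 1.70 (SE 0.17, edgeR adjusted p = 6.39e-13).

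ISG15, the ubiquitin-like protein that USP18 removes, gave 6.4 and 8.53 CPM and then 26.2 and 29.2 CPM in WT libraries. In USP18−/− libraries it gave 8.03 and 9.34 CPM and then 75.6 and 73.0 CPM, so only the treated libraries lay apart between the genotypes. The difference was 1.22 (SE 0.21, edgeR adjusted p = 3.71e-06), and it fell to 0.99, under the fold threshold, without the second untreated WT library. RSAD2, the antiviral enzyme viperin, had low counts, with 0.262 to 0.674 CPM untreated, and with IFN 2.58 and 1.85 CPM in WT and 15.5 and 11.2 CPM in USP18−/− libraries. Its difference of 2.35 (SE 0.80, edgeR adjusted p = 0.0379) lost its call when any of 5 libraries was left out, and ranged from 1.77 to 3.13. APOBEC3A, a cytidine deaminase, had a difference of 2.32 (SE 0.74, edgeR adjusted p = 0.0243) from levels of 0.308 to 2.84 CPM. It moved to 0.88 without the second untreated WT library and lost its call without any of 4 libraries. IFI44L, IFIT5, IFITM2, SAMD9L, DTX3L and PARP9 also lost their calls without 1 or more single libraries.

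Other antiviral promoters rose in both genotypes without a called difference. DDX60, a helicase that aids RNA sensing, had an IFN effect of 2.11 in WT (5.68 and 5.72 CPM to 22.6 and 26.6 CPM) and of 2.29 in USP18−/− cells (10.6 and 10.9 CPM to 55.2 and 49.7 CPM). The difference was 0.19 (SE 0.22, edgeR adjusted p = 0.709). The USP18−/− libraries were higher at both times, and the effects overlapped. IFI27, a mitochondrial ISG product, went from 0.413 and 0.272 CPM to 7.63 and 8.10 CPM in WT, and from 1.05 and 1.44 CPM to 15.2 and 17.7 CPM in USP18−/− libraries, with a difference of -0.77 (SE 0.60, edgeR adjusted p = 0.509). Its effects overlapped between the genotypes as well.

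MX1, a GTPase that blocks viral nucleocapsids, had 2 nearby regions called in different directions. The region at -236 bp (chr21:41419822-41420822) went from 13.0 and 9.89 CPM to 23.9 and 22.1 CPM in WT libraries, and from 7.59 and 7.80 CPM to 69.7 and 62.0 CPM in USP18−/− libraries. Its difference was 2.08 (SE 0.20, edgeR adjusted p = 9.15e-14). The region at 157 bp (chr21:41425688-41426688), counted from another TSS of the gene, went from 1.03 and 0.545 CPM to 7.53 and 4.41 CPM in WT libraries, and from 1.13 and 0.770 CPM to 1.95 and 1.03 CPM in USP18−/− libraries. Here the treated WT libraries alone were high, with a difference of -2.29 (SE 0.61, edgeR adjusted p = 0.00489). It is the single smaller call among the antiviral effectors, and it was lost without the first untreated USP18−/−, the first treated WT or the second untreated WT library, with values of -2.01, -1.85 and -1.88.

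The guanylate binding proteins, GTPases that attack intracellular pathogens and their vacuoles, had a larger effect at all 5 promoters with a region, with a median difference of 2.78. Their median effect was 0.20 in WT and 3.11 in USP18−/− cells. GBP2 gave 3.20 and 3.18 CPM and then 3.07 and 2.56 CPM in WT libraries, and 1.75 and 1.44 CPM and then 12.4 and 11.5 CPM in USP18−/− libraries. WT libraries were slightly lower with IFN, and only the treated USP18−/− libraries were high, with a difference of 3.07 (SE 0.39, edgeR adjusted p = 1.85e-09).

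GBP4 had a difference of 2.78, GBP1 of 2.69 and GBP3 of 1.98. For GBP1 all untreated and treated WT libraries lay at 0.545 to 1.09 CPM and the treated USP18−/− libraries at 5.06 and 4.41 CPM, and the call was lost without the first untreated WT library and with DESeq2. GBP5 was called at its TSS (2.96) and at -1804 bp (3.84). At the latter it went from 4.24 and 3.45 CPM to 9.81 and 9.95 CPM in WT libraries, and from 1.40 and 1.44 CPM to 52.7 and 53.3 CPM in USP18−/− libraries, so that WT cells responded there too. The genes of this family are near copies of each other and lie together on chromosome 1, so reads may have been shared among them.

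Among nucleic acid sensors and their signalling partners, 7 of 15 promoters had a larger effect and none a smaller one, with a median difference of 1.00. AIM2, a cytosolic DNA sensor that assembles an inflammasome, had the largest proximal difference in the table. At -631 bp it gave 4.75 and 3.27 CPM untreated and 3.96 and 4.10 CPM with IFN in WT libraries. In USP18−/− libraries it gave 0.611 and 0.866 CPM and then 18.9 and 17.1 CPM. WT libraries overlapped with and without IFN, and USP18−/− libraries went from the lowest to the highest of the 8, with a difference of 4.58 (SE 0.41, edgeR adjusted p = 1.56e-15). The overlapping window at -71 bp gave 4.55.

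IFI16, a nuclear DNA sensor of the same family, went from 7.23 and 5.63 CPM to 20.2 and 19.7 CPM in WT, and from 3.75 and 4.04 CPM to 56.6 and 52.4 CPM in USP18−/− libraries, with a difference of 2.16 (SE 0.25, edgeR adjusted p = 2.89e-11). DDX58, which encodes the RNA sensor RIG-I, went from 3.72 and 3.36 CPM to 7.14 and 7.38 CPM and from 5.32 and 5.87 CPM to 50.3 and 50.4 CPM, with a difference of 2.13 (SE 0.28, edgeR adjusted p = 5.34e-09). In both genes the treated USP18−/− libraries were well above all others. MYD88 (1.11) and TRAFD1 (1.00) lost their calls without any of 3 and 5 libraries. The adaptor genes MAVS and TMEM173, at -0.02 and -0.03, were not called.

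In MHC class I presentation, 5 of 15 promoters had a larger effect, with a median of 0.83. NLRC5, the transactivator of class I genes, went from 12 and 12.5 CPM to 15.4 and 15.1 CPM in WT, and from 14.8 and 12 CPM to 45.6 and 44.6 CPM in USP18−/− libraries. The untreated libraries of both genotypes were close, and the difference was 1.43 (SE 0.20, edgeR adjusted p = 2.45e-08). PSMB8, an immunoproteasome subunit, had the highest levels among the members described, from 36.5 and 36.6 CPM to 57.3 and 56.9 CPM in WT and from 60.8 and 56.7 CPM to 240 and 217 CPM in USP18−/− libraries, with a difference of 1.31 (SE 0.13, edgeR adjusted p = 6.00e-14). HLA-E (1.19), HLA-C (1.12) and PSMB10 (1.06) were also called, where reads of HLA genes can be split among near copies. The calls of HLA-C and PSMB10 were lost without the first treated USP18−/− library, and that of PSMB10 also without the first untreated WT library.

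Among chemokines, 5 of 14 promoters had a larger effect, with a median of 0.60. CXCL10, which attracts activated T cells through CXCR3, was near the lower limit in every untreated library and in WT libraries with IFN, at 0.363 to 1.13 CPM. The treated USP18−/− libraries alone were high, at 18.5 and 17.7 CPM, and the difference was 3.73 (SE 0.76, edgeR adjusted p = 1.17e-04). CXCL11, a ligand of the same receptor, gave 1.65 and 2.09 CPM and then 2.48 and 1.54 CPM in WT, and 1.66 and 0.674 CPM and then 12.6 and 14.9 CPM in USP18−/− libraries, with a difference of 3.42 (SE 0.48, edgeR adjusted p = 2.30e-08). Its second region, at -858 bp, had a difference of 4.36.

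CCL2, which attracts monocytes, had a difference of 1.42 (SE 0.50, edgeR adjusted p = 0.0480) that lost its call without any of 7 libraries. CCL3L1 (1.10) and CCL4L1 (1.20) are copies of CCL3 and CCL4, so their reads are uncertain. CCL3L1 lost its call without the second untreated WT library, and CCL4L1 without any of 4 libraries and with DESeq2. CCL8 was called at -332 bp (3.62) but not in the region nearest to its TSS (1.35), and the former call was lost with DESeq2.

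Among cytokines, 6 of 15 promoters had a larger effect, with a median of 0.65. TNFSF10, the death ligand TRAIL, gave 39.5 and 34.4 CPM and then 32.3 and 34.9 CPM in WT, and 22 and 21 CPM and then 87.0 and 75.7 CPM in USP18−/− libraries. WT libraries overlapped with and without IFN, while USP18−/− libraries went from below to above them, with a difference of 2.05 (SE 0.16, edgeR adjusted p = 9.58e-19). Of the 12 tested regions assigned to TNFSF10, 11 were called larger, over 69.9 kb, as were 10 of 16 assigned to the neighbouring LINC02068. Over all tested regions 4.66% were called larger.

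IL27, a cytokine that restrains T cell inflammation, went from 3.20 and 3.90 CPM to 6.24 and 6.56 CPM in WT and from 2.09 and 2.60 CPM to 18.1 and 19.1 CPM in USP18−/− libraries, with a difference of 2.14 (SE 0.34, edgeR adjusted p = 5.16e-07). IL1RN, which encodes the antagonist of the IL-1 receptor, went from 28.8 and 28.0 CPM to 34.2 and 37.6 CPM and from 15.4 and 17.0 CPM to 79.1 and 69.8 CPM, with a difference of 1.86 (SE 0.16, edgeR adjusted p = 6.35e-16). In both genes USP18−/− libraries were lower than WT before IFN and higher after it. IL15 (1.63) and CSF1 (1.11) each lost the call without any of 5 libraries. IL1B, at -0.41, and TNF, at 0.65, were not called.

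**Figure D4:**
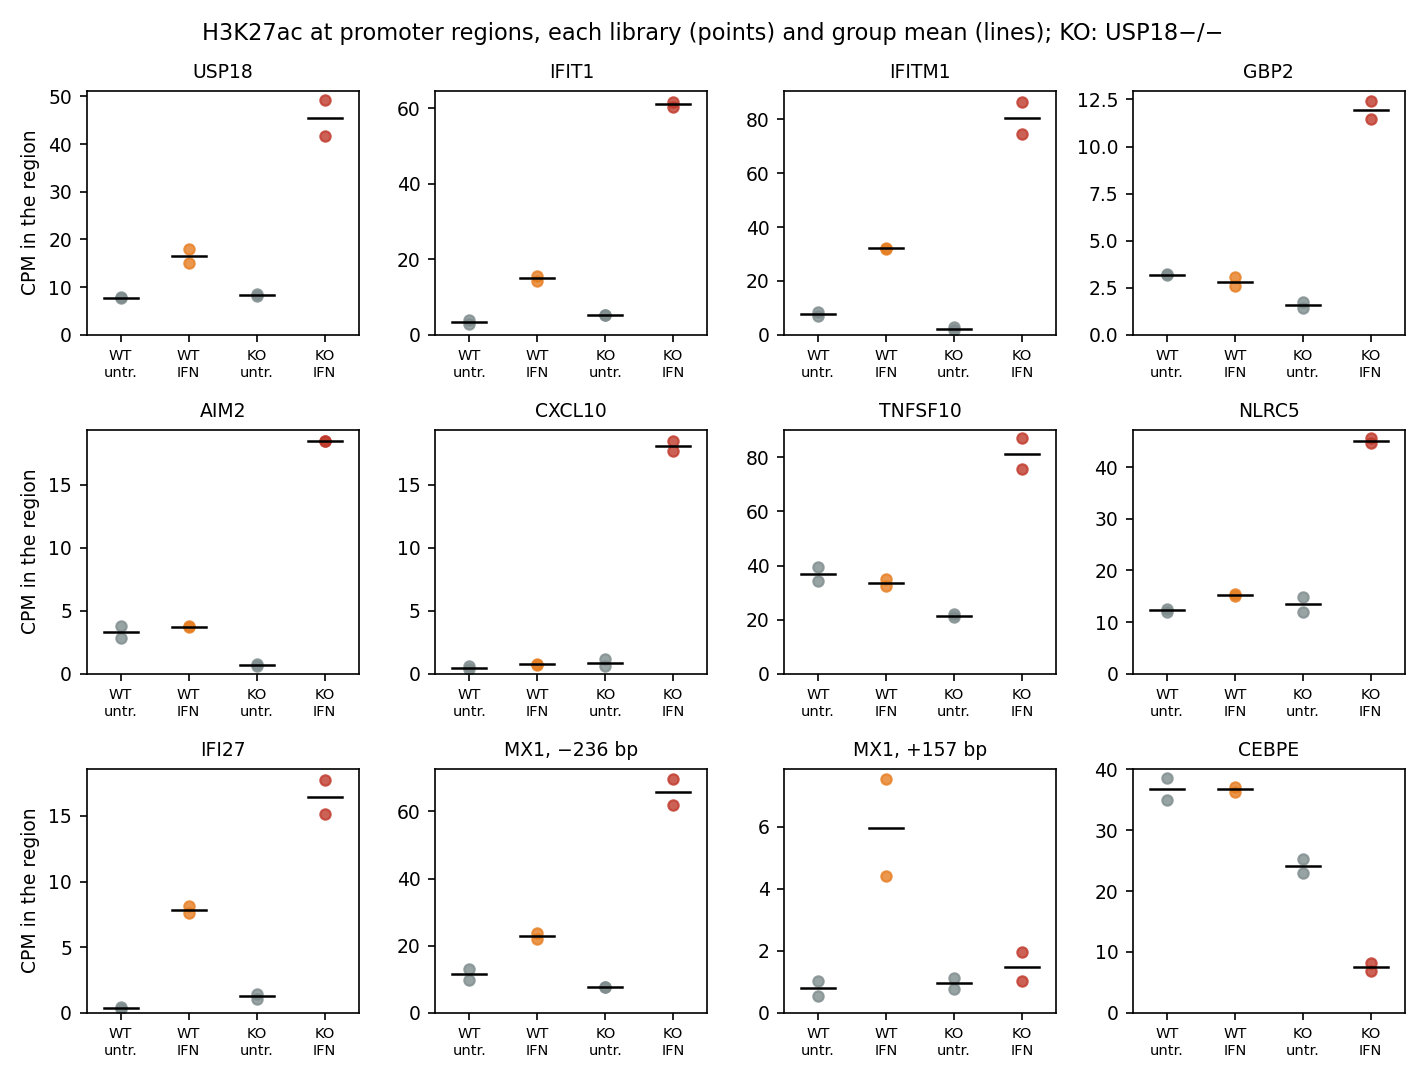
H3K27ac level (CPM, y axis, each panel with its own scale from 0) at 12 promoter regions in WT and USP18−/− (KO) cells, untreated or with IFN (x axis). Points are libraries, lines are group means of 2, and the AIM2 region is the one at -71 bp. The treated USP18−/− libraries are the highest in 10 panels, while at MX1 at 157 bp the treated WT libraries are highest and at CEBPE the treated USP18−/− libraries are lowest.

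Of 7 genes of the receptor, its kinases and ISGF3, which carry the IFN signal, STAT2 alone was called, beside 2.51% of all promoters called larger. It went from 17.1 and 16.1 CPM to 21.7 and 19.9 CPM in WT and from 18.2 and 17.3 CPM to 54.0 and 48.1 CPM in USP18−/− libraries, with a difference of 1.20 (SE 0.18, edgeR adjusted p = 2.09e-07). IRF9 had a difference of 0.42 (SE 0.17, edgeR adjusted p = 0.0976). The receptor chains IFNAR1 (-0.22) and IFNAR2 (-0.11) were not called.

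Of 9 feedback inhibitors of JAK-STAT signalling, USP18 alone was called, beside 2.51% of all promoters called larger. SOCS1, which inhibits JAK kinases, had a difference of 0.84 (SE 0.15, edgeR adjusted p = 1.54e-05), within 2-fold, and SOCS3 and PTPN6 were at 0.41 and 0.09. Of 7 IRF factors, IRF2, a factor that competes for ISRE-like sites, was called, beside the same share of all promoters. It went from 25.2 and 23.9 CPM to 27.2 and 24.6 CPM in WT and from 35.1 and 33.2 CPM to 86.8 and 87.9 CPM in USP18−/− libraries, with a difference of 1.28 (SE 0.15, edgeR adjusted p = 3.09e-10). IRF7, the factor that amplifies IFN production, had a difference of 0.54 (SE 0.14, edgeR adjusted p = 0.00262), and IRF5 and IRF1 of 0.96 and 0.80, all within 2-fold.

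Of 15 NF-kB subunits and inhibitors 1 was called, and of 13 pyroptosis genes also 1, again beside 2.51% of all promoters. NFKBIZ, a nuclear cofactor of NF-kB, went from 7.75 and 6.53 CPM to 8.23 and 7.38 CPM in WT and from 6.89 and 5.87 CPM to 23.3 and 24.3 CPM in USP18−/− libraries, with a difference of 1.76 (SE 0.26, edgeR adjusted p = 1.18e-07). None of 19 AP-1 and immediate early genes, 13 genes of the integrated stress response and 14 genes of sterol synthesis was called by edgeR or DESeq2, with list medians of 0.23, 0.24 and 0.03. At an unadjusted p under 0.05 in edgeR the counts were 5, 7 and 1 in either direction. The share of all promoters at that threshold was not taken, so these counts cannot be judged against it. Without the fold threshold, 3 promoters of the stress response list passed the adjusted p upwards and 1 downwards, while no AP-1, immediate early or sterol synthesis gene did, beside 7.5% and 3.84% of all promoters. The pyroptosis gene called was GSDMB at 2.45, from levels under 2 CPM, and the call was lost without any of 6 libraries and with DESeq2. GSDMD, the main pore-forming gasdermin, had a difference of 0.88 (SE 0.17, edgeR adjusted p = 2.76e-05), within 2-fold.

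Of the atypical ISGs named by the study, PLK2 (0.10), SGK1 (0.71) and FPR1 (0.45) had a promoter region and none was called. CCL4L2, also named, had no tested region within 3000 bp. Taking the region of highest mean count within 10000 bp, 1 of 4 had a larger effect. The study defined these genes by their RNA and considered their promoters and enhancers. Here H3K27ac was read in a single window per gene, and RNA was not measured. The lack of a call thus does not bear on the RNA of these genes. DESeq2 also called 0 of the 3 promoter regions. In edgeR 1 of 3 passed an unadjusted p under 0.05, a threshold for which no share of all promoters was taken. PLK2 gave 16.2 and 14.4 CPM and then 16.6 and 14.2 CPM in WT, and 19.3 and 22.5 CPM and then 22.8 and 22.2 CPM in USP18−/− libraries, a difference of 0.10 (SE 0.20, edgeR adjusted p = 0.855).

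The lists with medians at or below that of all promoters were the myeloid factors (0.05), sterol synthesis, the housekeeping genes (-0.13) and the cell cycle genes (-0.36). Of 16 myeloid factors 2 were called, CEBPE with a smaller effect and another gene with a larger one. Over all promoters 1.13% were called smaller and 2.51% larger. CEBPE, a factor of granulocyte maturation, gave 35.0 and 38.6 CPM and then 36.4 and 37.1 CPM in WT libraries. In USP18−/− libraries it gave 23 and 25.2 CPM and then 8.17 and 6.85 CPM. WT libraries overlapped with and without IFN, USP18−/− libraries fell, and the difference was -1.67 (SE 0.19, edgeR adjusted p = 2.12e-11).

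E2F1, which drives entry into S phase, went from 17.4 and 13.3 CPM to 19.1 and 15.0 CPM in WT and from 16.3 and 18.9 CPM to 7.46 and 8.54 CPM in USP18−/− libraries, with a difference of -1.30 (SE 0.23, edgeR adjusted p = 7.45e-06). It was the only one of 14 cell cycle promoters called, 12 of the 14 were below 0, and 5 passed the adjusted p without the fold threshold, again beside 3.84% of all promoters. CCNE1 (-0.89), PCNA (-0.85) and TOP2A (-0.63) had the next lowest values. Among the housekeeping promoters 0 of 14 were called by edgeR or DESeq2. At an unadjusted p under 0.05 in edgeR the count was 1 upwards and 2 downwards, again without a share of all promoters beside it. Of the 10 monocytic markers, LYZ, the lysozyme gene, was called smaller at -1.32 (edgeR adjusted p = 4.41e-05), beside 1.13% of all promoters. The others were not called. CD68 had a difference of 0.78 (edgeR adjusted p = 4.27e-04), within 2-fold.

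Among proximal regions with a mean of at least 1 CPM, the largest differences beyond the immune lists were found at LINC02068 (4.24), NKAIN1 (3.88), PCDHB8 (3.80), HTATIP2 (3.65) and RNU6-2 (4.26). LINC02068, a noncoding RNA gene beside TNFSF10, went from 0.723 and 1.09 CPM to 1.98 and 2.87 CPM in WT and from 0.611 and 0.962 CPM to 41.2 and 37.2 CPM in USP18−/− libraries (SE 0.58, edgeR adjusted p = 1.19e-08). The treated USP18−/− libraries alone were high in each of these. RNU6-2 is a copy of the U6 RNA gene and its reads are uncertain. Its value moved to 2.61, and that of HTATIP2 to 2.97, without the second untreated WT library, and both lost the call there and with DESeq2. SBF2 (3.37) followed next after the 10 proximal regions named under the limit of 1 CPM. VEPH1 and PVRIG had larger values but lay below that limit.

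The smallest proximal differences at a mean of at least 1 CPM came mostly from regions of low level, and below 1 CPM the values reached -4.03. ADGRG6 (-2.41), WNT10B (-2.29), KCNQ3 (-2.29), FGF11 (-2.28), LOC105369747 (-2.15) and DNASE1L2 (-2.14) lost their calls without any of 3 to 7 libraries, and CNTNAP3B (-2.40), a gene with near copies, without the second untreated USP18−/− library. LRRC25 (-2.35), a myeloid surface protein, went from 1.34 and 2.81 CPM to 3.27 and 1.74 CPM in WT and from 5.59 and 4.62 CPM to 1.51 and 0.845 CPM in USP18−/− libraries (SE 0.49, edgeR adjusted p = 1.75e-04). WT libraries overlapped with and without IFN, and USP18−/− libraries fell. RIOX2 had a difference of -2.13, and its call was lost with DESeq2.

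Among regions with a mean of at least 1 CPM, the largest differences were distal. At LINC02513 (-82984 bp, chr4:38283430-38284430) the WT libraries gave 1.14 and 0.272 CPM untreated and 1.39 and 1.23 CPM with IFN. The untreated USP18−/− libraries gave 0.0873 and 0.0962 CPM and the treated ones 20.0 and 16 CPM. With 2 counts before and 395 after IFN, the ratio in USP18−/− cells was 197 (exact 95% interval 54.1 to 1631, counting error only). The fitted difference was 6.50 (SE 0.89, edgeR adjusted p = 1.20e-08).

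The other distal regions by size were assigned to CXorf56 (5.67), LOC105370829 (5.48), CENPP (5.16) and ZHX2 (5.12). At CENPP, a centromere protein gene, WT libraries gave 0.908 to 1.96 CPM with and without IFN, and USP18−/− libraries 0.436 and 1.25 CPM and then 22.4 and 22.8 CPM. In each of these 4 the treated USP18−/− libraries alone were high, at 10.3 to 22.8 CPM. Assignment is to the nearest TSS and does not show which gene a distal region serves.

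In the other direction, the distal regions with the smallest differences at a mean of at least 1 CPM were assigned to SOWAHD (-3.49), GRIK1-AS2 (-3.09), SPIN4 (-3.02), LINC00870 (-2.90) and ARSD-AS1 (-2.90). Below that level the smallest was a region of COL6A6 (-6.59), where both untreated WT libraries held no counts, so the value depends on the fit. At SOWAHD the treated USP18−/− libraries held 3 counts and the untreated ones 29, a ratio of 0.103 (exact 95% interval 0.0201 to 0.333), and the call was lost without the first untreated USP18−/− library. With single libraries left out its value ranged from -7.14 to -2.57, and that of LINC00870 from -4.44 to -2.23. GRIK1-AS2 lost its call without the first treated USP18−/− library, and SOWAHD, GRIK1-AS2 and LINC00870 lost theirs with DESeq2. At SPIN4 the WT libraries stayed at 7.17 to 8.62 CPM, while USP18−/− libraries went from 1.40 and 2.12 CPM to 0.0888 and 0.376 CPM. These regions thus had low levels in USP18−/− cells with IFN, with means of 0.133 to 1.24 CPM. GRIK1-AS2 was low in all groups, with means of 0.185 to 1.56 CPM. ARSD-AS1 had means of 4.40 to 5.27 CPM in the other groups.

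A region with higher counts followed just behind them. At AJAP1 (101013 bp, chr1:4755558-4756558), within an intron, WT libraries gave 33.6 and 36.3 CPM and then 26 and 25.4 CPM. USP18−/− libraries gave 52.9 and 53.1 CPM and then 5.33 and 5.45 CPM. Untreated USP18−/− libraries were the highest of the 8 and treated ones the lowest, with a difference of -2.85 (SE 0.19, edgeR adjusted p = 8.41e-22). It was 1 of 10 called regions among 24 assigned to the gene.

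The region called in opposite directions lay at -14249 bp from LINC01954 (chr2:10863518-10864518). It went from 0.826 and 0.817 CPM to 2.08 and 2.87 CPM in WT libraries and from 2.79 and 2.31 CPM to 1.24 and 1.22 CPM in USP18−/− libraries. The WT effect was 1.58 (edgeR adjusted p = 0.0370) and the USP18−/− effect -1.05 (edgeR adjusted p = 0.0263), with a difference of -2.62 (SE 0.55, edgeR adjusted p = 2.20e-04). The treated WT and untreated USP18−/− libraries were at a similar level and the other 4 lower. It was 1 of 123276 tested regions (0.000811%). With DESeq2 no region with a called smaller effect had a called rise in WT and a called fall in USP18−/− cells. The reverse pattern was not counted with DESeq2.

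Calls clustered at some genes. Larger effects were assigned to 3430 genes, of which 2108 had a single region and 108 had 5 or more. Next to TNFSF10, genes with many were CHSY1 (11 of 31 tested regions), TBC1D1 (11 of 39), RGL1 (10 of 14), NRBF2 (9 of 21), RIN2 (9 of 29) and PRDM1 (9 of 48). PRDM1 encodes BLIMP-1, a transcriptional repressor that drives plasma cell maturation.

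Smaller effects were assigned to 1917 genes, of which 1242 had a single region and 54 had 5 or more. The most were found at LINC00656 (11 of 26 tested regions), AJAP1 (10 of 24), COL23A1 (10 of 27), MIR3667 (10 of 30) and PREX1 (9 of 49), and LINC01264 had 7 called of 8. At LINC01264 the median level of the called regions was 54.7 and 52.6 CPM in WT and 34.7 and 8.44 CPM in USP18−/− cells, untreated and treated. These counts also follow the number of tested regions of a gene, and windows of 1 locus can share tags.

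**Figure D5:**
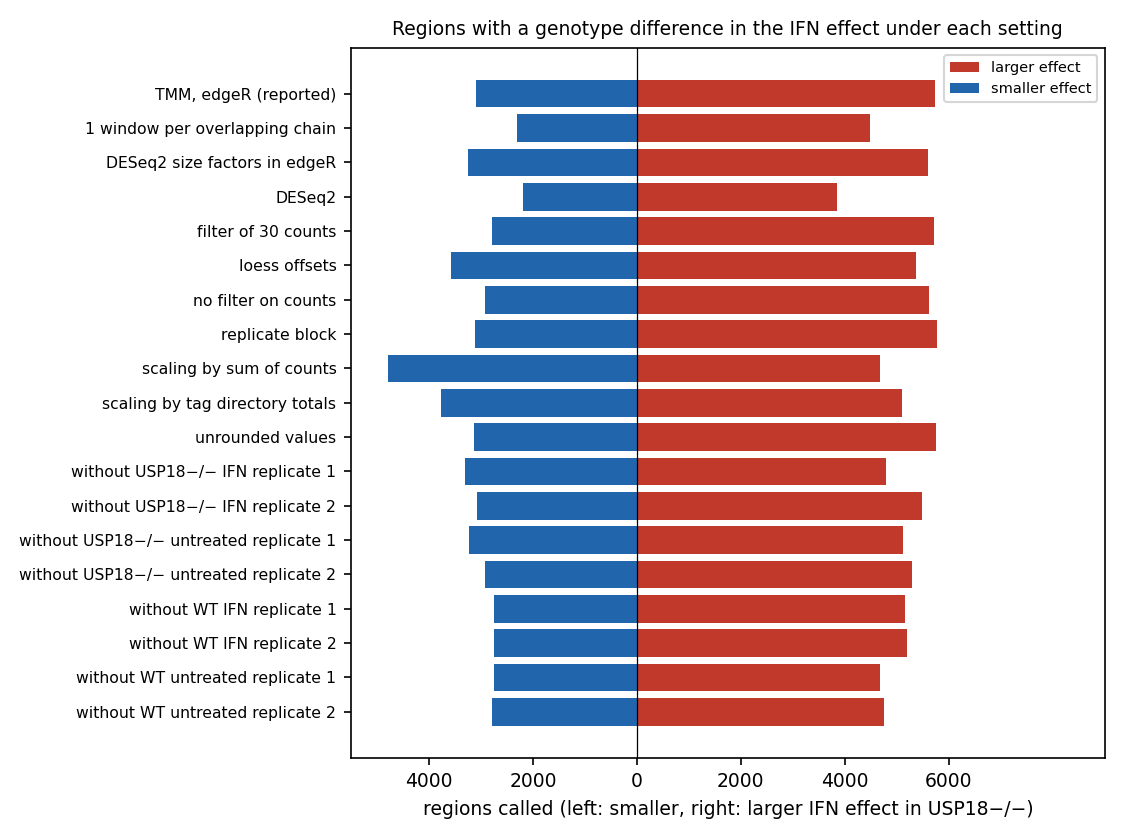
Number of regions (x axis) called with a smaller effect (blue, to the left) and a larger effect (red, to the right) in USP18−/− cells under the reported setting and each alternative that kept both proximal and distal regions (y axis). Larger calls shown ranged from 3857 with DESeq2 to 5765 with the replicate block, and scaling by the sum of counts is the only setting shown with more smaller (4779) than larger (4670) calls.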

How the data were processed

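H3K27ac ChIP-seq was analysed in 8 libraries, 2 in each of 4 groups taken from the sample labels. The authors mapped reads to hg38 with Bowtie2 and with HOMER took raw tag counts over 1000 bp windows centred on pooled ATAC-seq peaks. The deposited values are expected counts, unnormalized multiples of 0.5, and were rounded to whole counts. CPM uses library sizes scaled by TMM factors, and windows of equal length make levels comparable between regions. Regions with at least 10 counts in 2 of 8 libraries were tested with edgeR 4.0.16 (limma 3.58.1, R 4.3.3) by its quasi-likelihood test of the contrast of the IFN effects, Benjamini-Hochberg adjusted over all 123276. A call required over 2-fold and an adjusted p under 0.05. Error is the SE of the fit, and the coefficient of biological variation common to all regions was 0.0737.

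The members and gene lists were chosen with earlier results of these data known. Named regions were USP18, promoters of list members, the 10 largest and 10 smallest proximal and 5 and 5 distal differences with a mean of at least 1 CPM and no overlap between genotypes, regions of opposite effect, and genes with the most calls. AJAP1, SBF2, VEPH1, PVRIG, COL6A6, LYZ and CD68 were added after their values were seen. Effects did not overlap where every pair of USP18−/− libraries lay beyond every WT pair, which held for 34.1% of tested regions.

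Motifs were searched in the hg38 sequence with Python 3.11.15, and no test was made of them. Steps were tested on simulated data with 200 seeded 3-fold differences. Of these 66 were recovered, or 61 of 85 at a mean of at least 30 counts, and 4 unchanged regions were called. A first pass mark on recovered changes was missed. It was replaced by marks on direction, size and false calls, with no change to the fit. A region without a call can thus still hold a difference of that size. The simulation seeded few changes and gave all regions the common variation, so its recovered share need not hold for these data. Alternatives covered scaling, filter, DESeq2 1.42.0, thresholds, the replicate block, the region set and each library left out. Input libraries were not used, and 0 value columns were left unmapped. Results for some genes that the rules would name are not reported here.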

Additional observations from a re-analysis of the deposited data

Results flagged for a closer look

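Every result here has an IFN effect that differs between the genotypes by the test of the difference itself (edgeR adjusted p under 0.05), and values are USP18−/− minus WT on the log2 scale. The effect was larger at 5743 regions and smaller at 3093. At the USP18 promoter it was 1.35.

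By size, the proximal regions were AIM2 (4.58), CXCL11 (4.36), RNU6-2 (4.26), LINC02068 (4.24), NKAIN1 (3.88), GBP5 (3.84), PCDHB8 (3.80), CXCL10 (3.73), HTATIP2 (3.65) and CCL8 (3.62). In the other direction they were ADGRG6 (-2.41), CNTNAP3B (-2.40), LRRC25 (-2.35), WNT10B (-2.29), MX1 at 157 bp (-2.29), KCNQ3 (-2.29), FGF11 (-2.28), LOC105369747 (-2.15), DNASE1L2 (-2.14) and RIOX2 (-2.13). The distal regions were LINC02513 (6.50), CXorf56 (5.67), LOC105370829 (5.48), CENPP (5.16) and ZHX2 (5.12), and SOWAHD (-3.49), GRIK1-AS2 (-3.09), SPIN4 (-3.02), LINC00870 (-2.90) and ARSD-AS1 (-2.90). LINC01954, with called effects of opposite sign, was at -2.62. Groups of 2 libraries allow no test for a distant library.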

How the results depend on the processing

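Of the 5743 larger and 3093 smaller effects, 2915 (50.8%) and 1322 (42.7%) were called under all of 16 alternatives, and no region was called in the other direction under any setting. With DESeq2 3857 larger and 2183 smaller effects were called, with loess offsets 5369 and 3575, and with tag directory totals 5097 and 3763. Scaling by the sum of counts gave 4670 and 4779, and an adjusted p alone gave 6431 smaller. Leaving out 1 library gave 4683 to 5481 larger and 2743 to 3301 smaller, where the lone library of a group is assumed to vary like the other groups. Of 115 named called regions, 67 were called under every alternative.

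Among the classes, larger effects with no call in either genotype numbered 340 with the sum of counts and 148 with DESeq2, and those with a fall in WT cells 0 with DESeq2. Smaller effects with a fall in USP18−/− cells numbered 3863 and those with no call in either 909 with the sum of counts. With DESeq2 the latter numbered 270, while those with a rise in WT cells alone and those of opposite sign numbered 0 each. The sum of counts left 3 larger promoters in each of MHC class I, chemokines and cytokines, 0 in pyroptosis genes and 0 in myeloid factors, and 2 smaller ones in cell cycle genes. Taking the region of highest count within 10000 bp gave 0 smaller antiviral effectors, 2 larger of the receptor and ISGF3, 0 larger IRF factors, 1 smaller chemokine, 0 larger NF-kB genes, 1 larger AP-1 or immediate early gene and 1 larger atypical ISG. Counted per list with DESeq2, a choice made after seeing the data, 3 larger chemokines, 4 larger cytokines and 36 larger antiviral effectors were called, and no larger pyroptosis gene or myeloid factor. RN7SL1, a gene with many copies, reversed from 1.25 to -0.45 without the second untreated WT library, and ranged up to 1.97 with others left out. Beyond the scaling itself, the causes were not tested.

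Replicate numbers are shared only as numbers. Deviations of same-numbered libraries correlated at -0.0025 to 0.0951 between groups, so they were not treated as pairs. With the replicate block, 5765 larger and 3117 smaller effects were called, of which 5712 and 3071 were also called without it. The lowest of 5 equal groups of regions by mean level (0.367 to 0.959 CPM) gave 135 larger and 57 smaller calls, and differences there were rarely detectable at this depth.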
